A study of Sus scrofa with 12 samples.

Results

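Proteoglycans, elastic fibre proteins and matricellular proteins make up much of the connective tissue that surrounds muscle fibres. The genes described here are 37 members of these families, chosen by name, and all 37 were found among the 23271 genes of the deposited table. Transcripts of longissimus dorsi, a back muscle, were sequenced in 6 Laiwu and 6 Yorkshire libraries. Laiwu pigs are a fat-marbled Chinese breed, whereas Yorkshire pigs are bred for lean meat. The pigs were matched for weight, while no source used here gives their age, sex, genotype or diet, and breed is the only stated difference between the groups. Since nothing says that each library is a different pig, p-values refer to the spread among libraries, which may be technical.

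Small leucine-rich proteoglycans are short core proteins, many but not all of them with glycosaminoglycan chains. Many bind collagen fibrils, whose spacing and width they regulate. Elastic fibres consist of an elastin core on a scaffold of fibrillin microfibrils, tied together by fibulins and cross-linked by lysyl oxidases. Latent TGF-beta binding proteins hold the growth factor TGF-beta in that scaffold. Matricellular proteins such as the thrombospondins, tenascins and SPARC act on cells and on matrix assembly more than as structural parts, and several of them are known to respond to injury. In muscle these genes are expressed mainly by connective tissue cells, the fibro-adipogenic progenitors among them.

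Depth was 54961358 to 67285809 counts per library. The tissue label was checked against markers of the skeletal muscle fibre, of which 9 of 12 were in the table, with a summed level of 68552 to 86003 FPKM in Laiwu and 69258 to 89929 FPKM in Yorkshire. Levels are given in FPKM, which scales a count by gene length and by depth and so allows different genes to be compared. Yorkshire 5 stood apart from the other libraries. Across genes, which are not independent replicates, Spearman's rho between gene length and the deviation of Yorkshire 5 from the gene mean was -0.433, where the other 11 libraries had -0.115 to 0.183. This library held the lowest CPM of 22.3% of all tested genes. In bulk muscle, fewer cells of a type and less RNA per cell cannot be told apart.

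The 37 genes spanned more than 3 orders of magnitude in FPKM. SPARC, which encodes a collagen binding matricellular protein, was highest, with a mean of 203.8 FPKM over the 12 libraries. DCN, which encodes decorin, the main small proteoglycan of muscle connective tissue, followed at 95.5 FPKM. SPARCL1, the gene of a SPARC relative made by vascular and connective tissue cells, came after them at 59.2 FPKM. These 3 genes held 60.2% to 68.2% of the summed FPKM of the 37 genes in each library. A further 6 genes lay between 10 and 50 FPKM, namely LTBP4, HSPG2, THBS4, LUM, NID1 and FN1, and another 6 averaged under 1 FPKM. FBN2, the fibrillin gene known mainly from embryonic tissue, was lowest, averaging 0.143 ± 0.0505 FPKM (SD, n = 6) in Laiwu against 0.0850 ± 0.0411 FPKM (SD, n = 6) in Yorkshire. It was the only member below the mean of 0.5 FPKM needed for testing, and it is given as a level only. The summed FPKM of the 37 genes was lowest in Laiwu 2 at 458.4 and highest in Laiwu 4 at 777.4, and the Yorkshire libraries lay between 491.1 and 576.9.

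**Figure D1:**
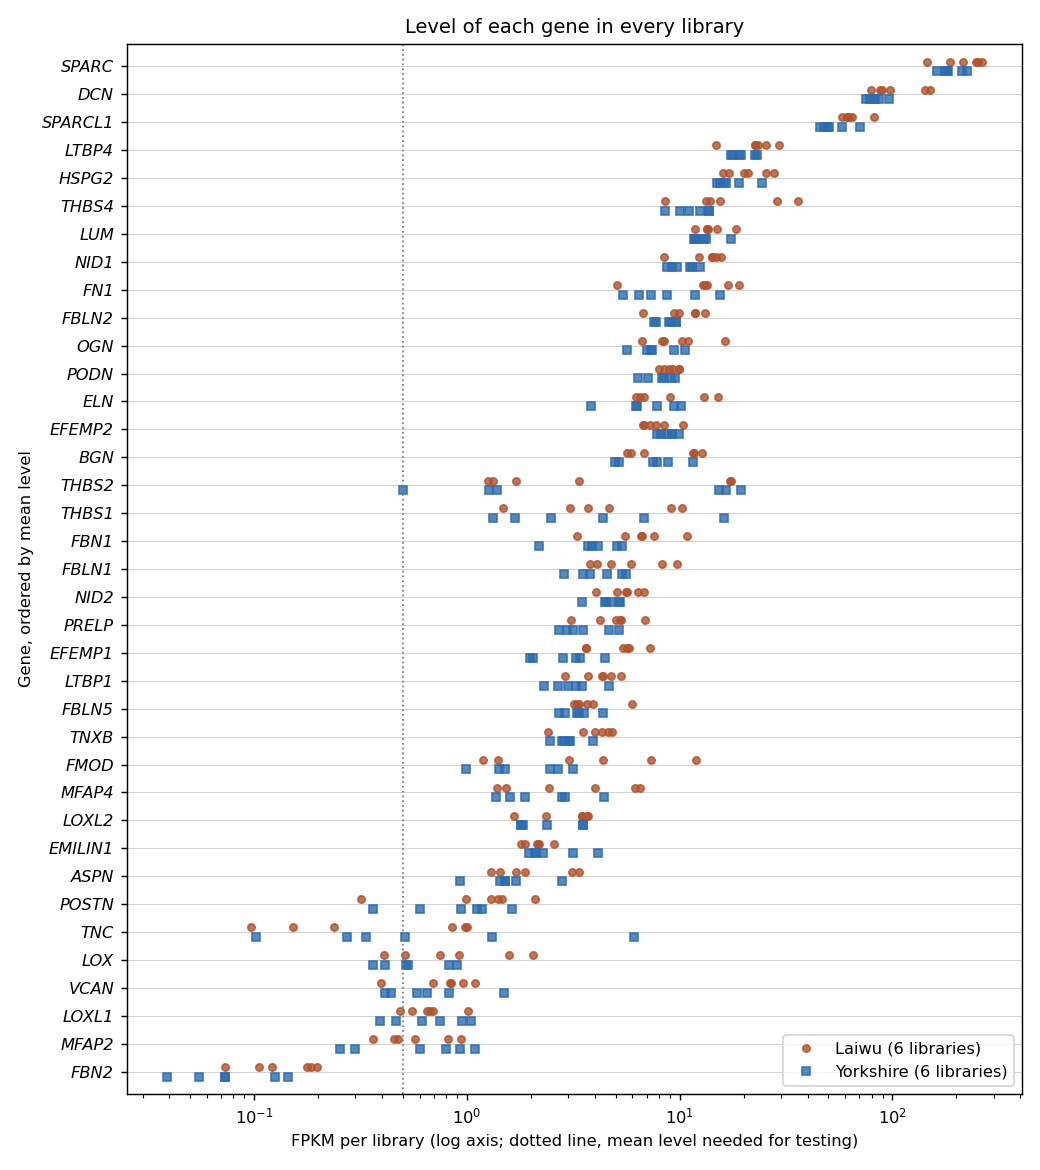
FPKM of each of the 37 genes in every library, on a log axis, with genes ordered by their mean; circles are the 6 Laiwu and squares the 6 Yorkshire libraries. The circles and squares overlap for all 36 tested genes, and TNC and THBS2 spread most widely.

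None of the 36 tested genes passed the test of breed. With p adjusted over all 11205 tested genes by Benjamini-Hochberg, edgeR's quasi-likelihood test called 0 members at an adjusted p under 0.05, where 0% of all tested genes were called, and the lowest adjusted p of a member was 0.912. DESeq2 called 0 members as well, where it called 0.00892% of all tested genes. At an unadjusted p under 0.05 stood 11 members by edgeR, 12 by DESeq2 and 6 by limma with a pseudocount of 1, where the shares of all tested genes were 4.44%, 5.08% and 3.49%. All 11 had a fitted log2 fold change above 0, which means a higher fitted level in Laiwu (the log2 ratio of Laiwu to Yorkshire), and 2.14% of all tested genes met both conditions. That count ran from 2 to 17 with 1 library left out. It was 2 without Laiwu 4, 2 without Yorkshire 5, 3 without Laiwu 3 and 17 without Laiwu 2, where the shares of all tested genes in the same fits were 3.87%, 2.61%, 2.53% and 4.95%.

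Of the 36 tested members, 29 had a fitted log2 fold change above 0 and 7 below, where 49.7% of all tested genes lay above 0. The members' median log2 fold change was 0.28, against -0.0013 over all tested genes. The median was 0.21 without Laiwu 4 and 0.38 without Laiwu 2. For 0 members did all 6 libraries of a breed exceed all 6 of the other, where the share over all tested genes was 0.178%. The median standard error of a member was 0.22 on the log2 scale, against 0.16 over all tested genes. The 95% interval of the fold change lay within a 2-fold difference in either direction for 25 of 36 members, where 90.0% of all tested genes had such an interval. In the other 11 members, which include FMOD, TNC and the thrombospondin genes THBS1, THBS2 and THBS4, a difference of 2-fold or more lay within the interval. In simulated counts of all 11205 genes for this comparison, 200 genes drawn at random were changed at a time. Of those changed 2-fold 80.5% were recovered, and of those changed 1.5-fold 0%. These shares are over random genes and depend on how many change, so they do not give the chance of finding a member. The simulated counts also lack deviations that genes of a library share.

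**Figure D2:**
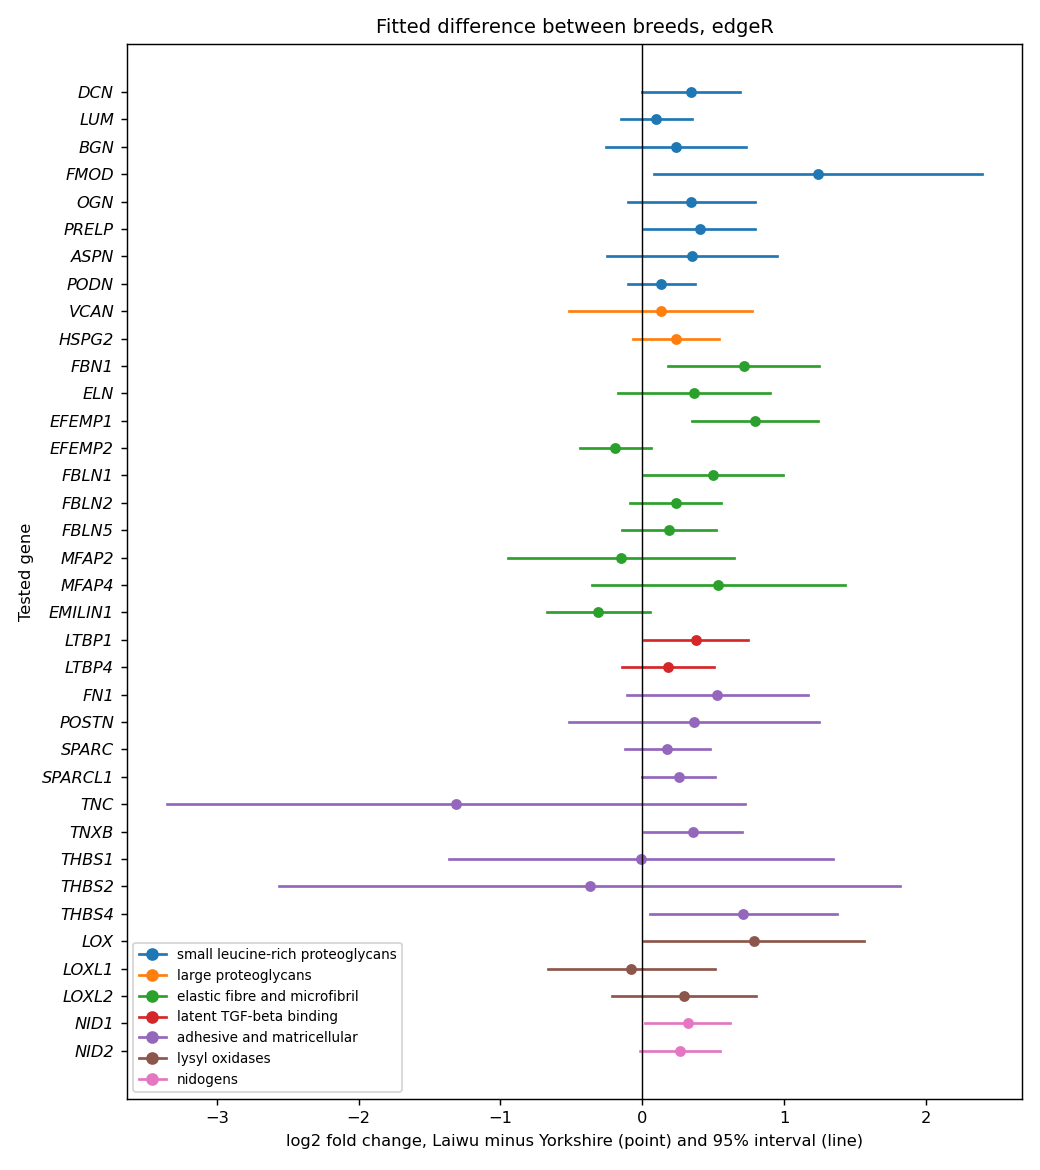
Fitted log2 fold change of each tested gene, Laiwu minus Yorkshire (point), with its 95% interval (line), coloured by role. Of 36 points, 29 lie to the right of 0, and the intervals of TNC, THBS2 and THBS1 are the widest.

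All 8 small leucine-rich proteoglycan genes had a fitted log2 fold change above 0, from 0.099 to 1.24, with a median of 0.34, and 0 of 8 passed. DCN (ENSSSCG00000000915) ran from 79.5 FPKM through a median of 93.3 to 149.9 FPKM in Laiwu, and from 75.0 through 82.1 to 96.0 FPKM in Yorkshire. Only 3 Laiwu libraries lay above every Yorkshire library, Laiwu 3 and Laiwu 4 being far ahead at 142.2 and 149.9 FPKM. The log2 fold change of DCN was 0.34 ± 0.16 (SE, n = 6 each; edgeR adjusted p = 0.912), and 0.21 without Laiwu 4. FMOD, which encodes fibromodulin, a collagen binding proteoglycan abundant in tendon, had the largest fitted value of the 36 members. It stood at 1.19 to 11.97 FPKM in Laiwu (median 3.69) and at 0.993 to 3.17 FPKM in Yorkshire (median 1.98). Laiwu 3, Laiwu 4 and Laiwu 6 exceeded every Yorkshire library, while Laiwu 1 and Laiwu 2 lay below the Yorkshire median. Its log2 fold change was 1.24 ± 0.53 (SE; edgeR adjusted p = 0.912), and 0.72 without Laiwu 4.

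Several genes of this family lie in pairs on the pig genome (Sscrofa11.1, coordinates as deposited). DCN (chromosome 5, 91682658 to 91714235) and LUM (chromosome 5, 91748885 to 91757598), the gene of lumican, are 34.6 kb apart. LUM was at 14.3 ± 2.26 FPKM in the Laiwu and 13.2 ± 2.20 in the Yorkshire libraries (SD, n = 6 each), so that DCN exceeded it 7.46 ± 1.18 times in Laiwu and 6.45 ± 1.19 times in Yorkshire. FMOD (chromosome 9, 64063001 to 64073858) and PRELP (chromosome 9, 64190982 to 64207001), which encodes a proteoglycan that anchors basement membranes to connective tissue, are 117 kb apart. PRELP varied less than its neighbour, at 4.96 ± 1.27 and 3.70 ± 1.01 FPKM, and the ratio of FMOD to PRELP ran from 0.282 to 2.27 within Laiwu and from 0.325 to 1.01 within Yorkshire. OGN, the gene of osteoglycin (chromosome 3, 42116526 to 42135939), and ASPN, the gene of asporin (chromosome 3, 42165561 to 42192813), are 29.6 kb apart and were both highest in Laiwu 4, at 16.4 and 3.36 FPKM. Their ratio was 4.99 ± 1.06 in Laiwu and 5.01 ± 0.794 in Yorkshire. Both lie within CENPP on the opposite strand, which averaged 1.11 FPKM, and the sources used here do not say whether reads were assigned by strand.

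Of the other members of the family, BGN, which encodes biglycan, ran from 5.67 to 12.8 FPKM in Laiwu and from 4.99 to 11.6 FPKM in Yorkshire. It overlaps the creatine transporter gene SLC6A8 by 590 bases on the same strand, and SLC6A8 averaged 67.1 FPKM, so the BGN count is uncertain. PODN, the gene of podocan, was the steadiest of the 8 in Laiwu, at 9.11 ± 0.807 FPKM, and stood at 8.15 ± 1.21 FPKM in Yorkshire. The log2 fold changes of OGN and ASPN were 0.35 ± 0.21 and 0.35 ± 0.28 (SE), and were 0.14 and 0.16 without Laiwu 4. That of ASPN was 0.22 without Laiwu 3 and 0.56 without Yorkshire 1. That of PRELP was 0.40 ± 0.18 (SE), and 0.30 to 0.52 with 1 library left out. The value of BGN was 0.24 ± 0.23, or 0.13 without Laiwu 6, 0.14 without Laiwu 4 and 0.15 without Yorkshire 6, that of PODN 0.14 ± 0.11, or 0.070 without Yorkshire 3, and that of LUM 0.099 ± 0.12, or 0.0039 without Laiwu 4.

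The large proteoglycans differed in level by more than an order of magnitude. HSPG2, which encodes perlecan, the heparan sulfate proteoglycan of basement membranes, was at 21.2 ± 4.57 FPKM in the Laiwu and 17.8 ± 3.54 in the Yorkshire libraries (SD, n = 6 each). The fitted log2 fold change of 0.24 ± 0.14 (SE) was 0.061 once each library's trend on gene length was removed, HSPG2 being 14984 bases long. Without Laiwu 5, where it was highest at 27.6 FPKM, the value was 0.15. VCAN, which encodes versican, a large chondroitin sulfate proteoglycan of loose and growing tissue, was at 0.803 ± 0.240 and 0.735 ± 0.401 FPKM. It was highest in Yorkshire 3, at 1.49 FPKM. Its log2 fold change of 0.13 ± 0.30 was -0.11 with the length trend removed, 0.39 without Yorkshire 3 and 0.0053 without Yorkshire 1. The nidogens, which link laminin to type IV collagen in basement membranes, had log2 fold changes of 0.32 ± 0.14 for NID1 and 0.27 ± 0.13 for NID2. NID1 was at 13.3 ± 2.61 and 10.5 ± 1.46 FPKM, and NID2 at 5.60 ± 0.988 and 4.60 ± 0.642 FPKM, with 4 Laiwu libraries above every Yorkshire library for each gene.

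Among the 10 tested elastic fibre and microfibril genes, 7 had a fitted log2 fold change above 0 and 3 below, with a median of 0.30, and 0 of 10 passed. EFEMP1, which encodes fibulin-3, had the smallest p of the 36 members (chromosome 3, 85407709 to 85473252). It ran from 3.63 through a median of 5.56 to 7.28 FPKM in Laiwu, and from 1.98 through 3.05 to 4.47 FPKM in Yorkshire. All 6 Laiwu libraries lay above the Yorkshire median, 4 of them lay above every Yorkshire library, and Yorkshire 1 was the only library of its breed inside the Laiwu range. The fitted log2 fold change was 0.79 ± 0.21 (SE; 95% interval 0.35 to 1.24; edgeR adjusted p = 0.912), and ran from 0.69 to 0.93 with 1 library left out. By DESeq2 the adjusted p of EFEMP1 was 0.561.

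FBN1, which encodes fibrillin-1, the main microfibril protein of adult tissue (chromosome 1, 123102009 to 123359649), came next. It ran from 3.30 through 6.66 to 10.9 FPKM in Laiwu and from 2.18 through 4.01 to 5.39 FPKM in Yorkshire. Of the 6 Laiwu libraries, 5 lay above every Yorkshire library, and Laiwu 2 lay below the Yorkshire median. The log2 fold change of FBN1 was 0.72 ± 0.25 (SE; edgeR adjusted p = 0.912), and 0.55 without Laiwu 3. The FBN2 levels rested on 26 to 120 counts per library.

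ELN, the gene of elastin itself, was at 9.47 ± 3.80 FPKM in the Laiwu and 7.30 ± 2.32 in the Yorkshire libraries (SD, n = 6 each). Its highest values were 15.2 FPKM in Laiwu 3 and 13.03 FPKM in Laiwu 4, and its log2 fold change of 0.37 ± 0.25 (SE) was 0.20 without Laiwu 3 and 0.24 without Laiwu 4. FBLN1, the gene of fibulin-1, had a log2 ratio of 0.50 ± 0.23, or 0.30 without Laiwu 4, in which it was highest at 9.72 FPKM. FBLN2, the gene of fibulin-2, was at 10.5 ± 2.30 and 8.77 ± 0.902 FPKM, and its log2 fold change of 0.24 ± 0.15 was 0.15 without Laiwu 4. FBLN5, whose product tethers elastin to cells, was at 3.91 ± 1.05 and 3.37 ± 0.589 FPKM, with a log2 fold change of 0.19 ± 0.15 that was 0.043 without Laiwu 3. MFAP4, the gene of a microfibril-associated glycoprotein, ran from 1.38 to 6.51 FPKM among Laiwu and from 1.37 to 4.43 FPKM among Yorkshire libraries. Its log2 fold change was 0.54 ± 0.41, or 0.30 without Laiwu 4 and 0.31 without Laiwu 3.

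The 3 genes below 0 in this group were EFEMP2, EMILIN1 and MFAP2. EFEMP2, which encodes fibulin-4, needed for elastin cross-linking, was at 7.89 ± 1.37 FPKM in the Laiwu and 8.85 ± 0.772 in the Yorkshire libraries, giving a log2 ratio of -0.19 ± 0.12 (SE). Its paralogue EFEMP1 thus lay on the other side of 0. EMILIN1, the gene of an elastic fibre glycoprotein, had a log2 ratio of -0.31 ± 0.17, or -0.19 without Yorkshire 3, where it was highest at 4.13 FPKM. MFAP2, a microfibril gene, averaged 0.602 and 0.663 FPKM and rested on 32 to 118 counts per library, with a log2 fold change of -0.15 ± 0.37 that was 0.080 without Yorkshire 2.

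Both latent TGF-beta binding genes lay above 0. LTBP1 was at 4.23 ± 0.832 FPKM in the Laiwu and 3.23 ± 0.808 in the Yorkshire libraries (SD, n = 6 each), giving a log2 ratio of 0.38 ± 0.17 (SE). LTBP4, known for its part in elastic fibre assembly, was the more abundant at 23.0 ± 4.74 and 19.9 ± 2.38 FPKM, giving a log2 ratio of 0.18 ± 0.15, or 0.11 without Laiwu 6 and 0.27 without Laiwu 2. Of the lysyl oxidases, which cross-link elastin and collagen, LOX had a log2 fold change of 0.79 ± 0.36, which was 0.49 without Laiwu 3. LOX ran from 0.408 through 0.831 to 2.04 FPKM in Laiwu and from 0.362 through 0.525 to 0.901 FPKM in Yorkshire, so that only Laiwu 3, Laiwu 4 and Laiwu 6 exceeded every Yorkshire library. LOXL2 was at 3.06 ± 0.845 and 2.47 ± 0.837 FPKM (SD, n = 6 each), giving a log2 ratio of 0.29 ± 0.24, or 0.44 without Yorkshire 6. LOXL1, the form tied to elastic fibres, was at 0.679 ± 0.184 and 0.702 ± 0.259 FPKM, giving a log2 ratio of -0.078 ± 0.27 that was 0.053 without Yorkshire 1.

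Of the 9 adhesive and matricellular genes, 6 had a fitted log2 fold change above 0 and 3 below, with a median of 0.26, and 0 of 9 passed. THBS4, which encodes thrombospondin-4, a protein of tendon and muscle (chromosome 2, 88731122 to 88780751), ran from 8.58 through 14.7 to 36.05 FPKM in Laiwu and from 8.56 through 11.8 to 13.8 FPKM in Yorkshire. Laiwu 3 and Laiwu 4 stood at 28.8 and 36.05 FPKM, and the other 4 Laiwu libraries at 8.58 to 15.5 FPKM. The fitted log2 fold change was 0.71 ± 0.30 (SE; edgeR adjusted p = 0.912), and 0.42 without Laiwu 4. FN1, the gene of fibronectin, which cells bind through integrins, was at 13.4 ± 4.73 and 9.21 ± 3.79 FPKM (SD, n = 6 each), giving a log2 ratio of 0.53 ± 0.30. SPARC ran from 146.0 through 230.4 to 263.0 FPKM in Laiwu and from 161.6 through 181.5 to 223.4 FPKM in Yorkshire, and Laiwu 2 held the lowest of the 12 values. Its log2 fold change was 0.18 ± 0.14, or 0.11 without Laiwu 4. SPARCL1 showed another order: 5 of the 6 Yorkshire libraries lay below every Laiwu library, and Yorkshire 4, at 70.4 FPKM, exceeded all of them but Laiwu 3. The log2 fold change of SPARCL1 was 0.26 ± 0.12.

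TNXB, the gene of tenascin-X, a tenascin of loose connective tissue, was at 3.95 ± 0.885 FPKM in the Laiwu and 3.02 ± 0.487 in the Yorkshire libraries, giving a log2 ratio of 0.36 ± 0.16 (SE). It is 14113 bases long, and the value was 0.21 with the length trend removed. POSTN, which encodes periostin, ran from 0.319 to 2.09 FPKM in Laiwu and from 0.363 to 1.63 FPKM in Yorkshire, with a log2 fold change of 0.37 ± 0.41 that was 0.15 without Laiwu 4, 0.19 without Yorkshire 1 and 0.56 without Laiwu 2.

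THBS2, TNC and THBS1 had the widest spread over the libraries, their highest value exceeding their lowest by 38.7, 63.6 and 12.1 times. FMOD, at 12.1 times, was as wide as THBS1. THBS2, which encodes thrombospondin-2 (ENSSSCG00000004012; chromosome 1, 855389 to 882473), stood at 17.4 FPKM in Laiwu 2, 17.2 in Laiwu 4, 19.4 in Yorkshire 1, 15.3 in Yorkshire 2 and 16.5 in Yorkshire 4. In the other 7 libraries it lay between 0.502 and 3.36 FPKM, and none fell between 3.36 and 15.3 FPKM. Both breeds held libraries of either kind. The raw counts behind these levels were 5100 to 7532 in the 5 libraries and 187 to 1283 in the 7. Count over FPKM gave a gene length of 5896 to 5947 bases in every library, so nearly the same length entered each value. The log2 fold change between the breeds was -0.37 ± 1.005 (SE; 95% interval -2.56 to 1.82), and ran from -0.88 without Laiwu 4 to -0.019 without Yorkshire 1.

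The same 5 libraries were not the highest 5 for any other member. Of the 11205 tested genes, 37 (0.330%) had a gap of at least 2 in log2 CPM between neighbouring libraries with at least 3 libraries on each side, and THBS2 was the only member among them. In none of the 7 other genes starting within 500 kb of THBS2 were those 5 libraries all above the others.

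TNC, which encodes tenascin-C, a protein of healing and developing tissue, had a median of 0.545 FPKM in the Laiwu and 0.425 in the Yorkshire libraries. Yorkshire 3 stood at 6.14 FPKM, where the next library, Yorkshire 5, was at 1.31 FPKM. The log2 fold change of TNC was -1.31 ± 0.93 (SE) and 0.034 without Yorkshire 3. THBS1, which encodes thrombospondin-1, an activator of latent TGF-beta, was likewise highest in Yorkshire 3, at 16.2 FPKM. It ran from 1.47 to 10.3 FPKM in Laiwu and from 1.33 to 16.2 FPKM in Yorkshire, and its log2 fold change of -0.0097 ± 0.62 was 0.60 without Yorkshire 3. Summed macrophage markers were also highest in Yorkshire 3, at 49.2 FPKM, against 14.6 to 45.6 FPKM in Laiwu, and 45.6 FPKM was reached in Laiwu 4, where TNC and THBS1 stood at 1.002 and 4.64 FPKM. Whether these cells bear on the values was not tested. All 12 markers of that list were in the table, and 9 were tested.

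**Figure D3:**
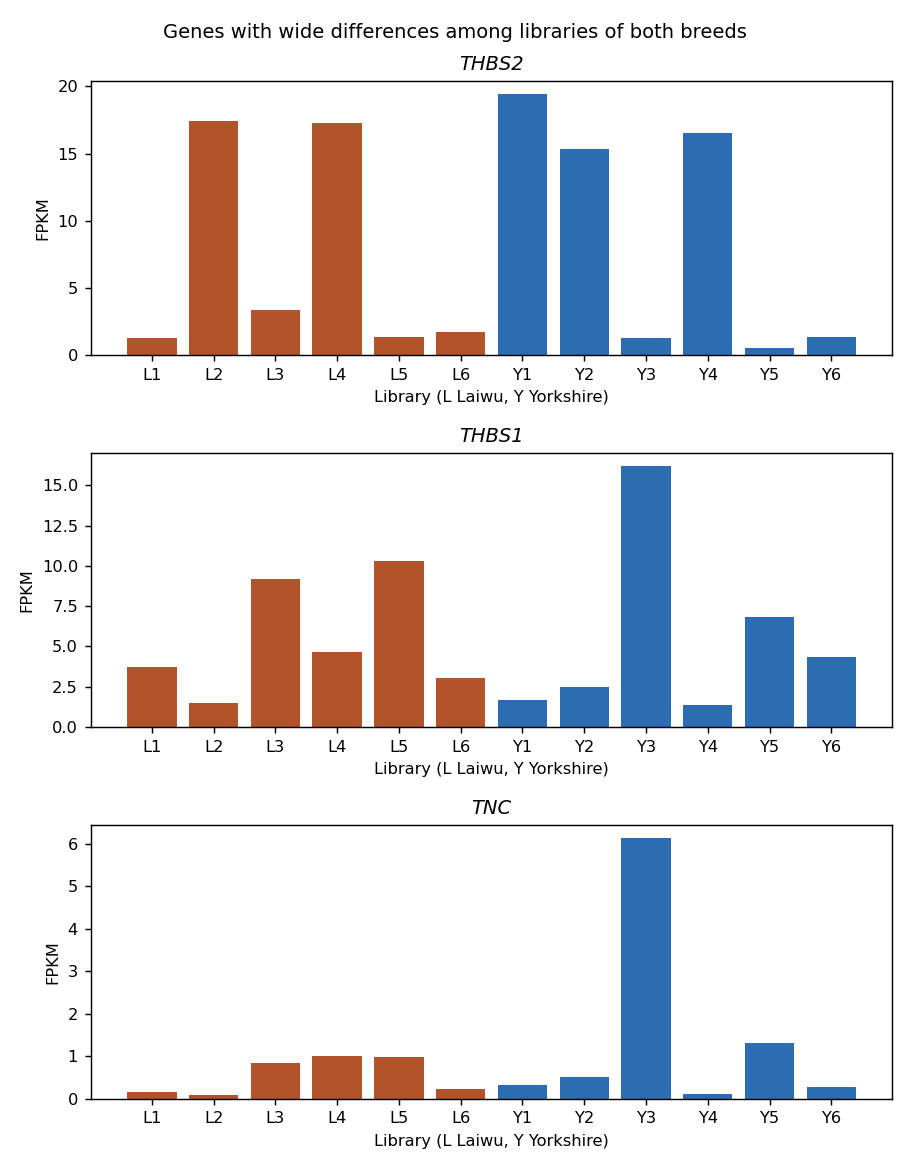
FPKM of THBS2, THBS1 and TNC in each of the 12 libraries, Laiwu in brown and Yorkshire in blue, with bars from 0. THBS2 is high in L2, L4, Y1, Y2 and Y4 at 15.3 to 19.4 FPKM, and THBS1 and TNC are highest in Y3 at 16.2 and 6.14 FPKM.

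The libraries of Laiwu differed among themselves in these genes. Laiwu 4 held the highest CPM of 12 of the 36 tested members, where it held that of 8.42% of all tested genes, and Laiwu 3 held 10, where it held 10.6%. Laiwu 2 held the lowest of 10 members, where it held 6.73%, and Yorkshire 5 held 10, where it held 22.3%. Laiwu 4 lay above the gene mean for 33 of 36 members, Laiwu 3 for 29 and Laiwu 6 for 27, whereas Laiwu 2 and Yorkshire 4 did so for 7 each. Of all tested genes, 49.9% to 52.2% lay above their mean in a library. The median deviation was 0.48 in Laiwu 4 and 0.42 in Laiwu 3 on the log2 scale, and -0.32 in Laiwu 2, -0.28 in Yorkshire 4 and -0.36 in Yorkshire 5. The SD of log2 CPM was larger in Laiwu than in Yorkshire for 25 of 36 members, where this held for 35.9% of all tested genes. Without Laiwu 2 the SD was larger in Laiwu for 18 members, the lowest of the counts with 1 library left out, and without Yorkshire 5 for 25, where it then held for 49.6% of all tested genes. That share thus moved with the library left out. It is not given here without Laiwu 2, so the 18 stands without its background.

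**Figure D4:**
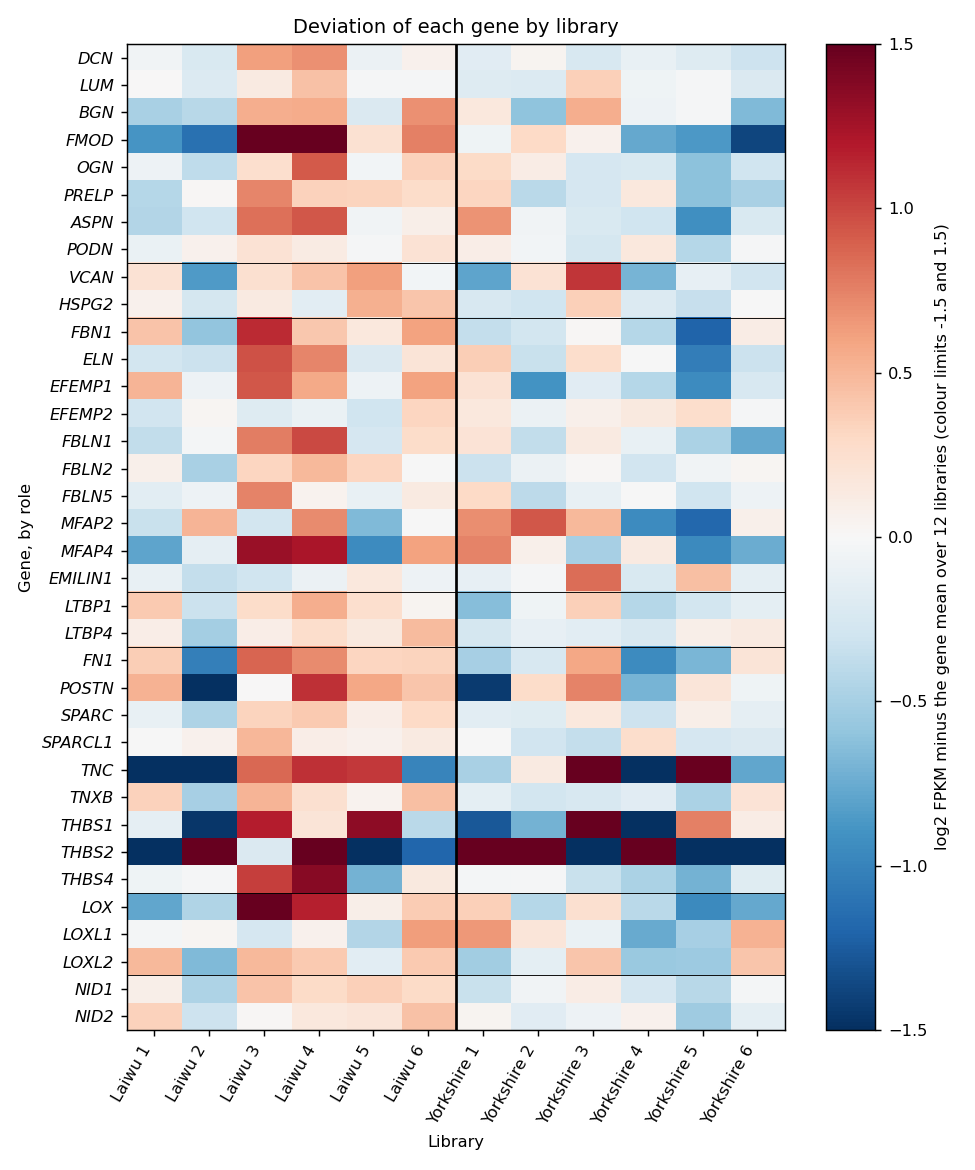
Deviation of log2 FPKM from the gene mean for 36 genes (rows, in blocks by role) in 12 libraries (columns), with Laiwu left of the vertical line; colours stop at -1.5 and 1.5. Laiwu 3 and Laiwu 4 are red in most rows and Laiwu 2, Yorkshire 4 and Yorkshire 5 blue in most, while the THBS2 row follows another pattern.

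The mean deviation of a role's genes was highest in Laiwu 4 for the adhesive and matricellular genes, at 0.83, with 0.49 in Laiwu 3. These genes include THBS2, itself high in Laiwu 4 at 17.2 FPKM, which adds to the 0.83. The mean deviation of the small leucine-rich proteoglycan genes was 0.80 in Laiwu 4 and 0.53 in Laiwu 3, and between -0.32 and 0.25 in the other 4 Laiwu libraries. That of the lysyl oxidase genes was 0.56 and 0.52 in the same libraries, and that of the elastic fibre genes 0.52 and 0.46. The 2 nidogens lay between 0.15 and 0.31 in 5 Laiwu libraries and at -0.39 in Laiwu 2. Whether the roles differ was not tested. Laiwu 2, Yorkshire 1 and Yorkshire 4 were picked after the values were seen, as the 3 libraries lowest for THBS1. They were the 3 lowest for 7 of 36 members, where this held for 4.14% of all tested genes. The 7 were VCAN, FBLN2, LTBP1, POSTN, SPARC, LOXL2 and, by that choice, THBS1. These 3 libraries were among the 5 in which THBS2 was high. In 10 of 36 members, omitting any single library changed the fitted log2 value by a factor of at most 1.5. These were EFEMP1, FBN1, FN1, LTBP1, NID1, NID2, PRELP, SPARCL1 and TNXB, all above 0, and EFEMP2, below 0. The factor compares log2 values, not fold changes, so a member near 0 can exceed it through a small shift. PODN, for example, is outside the 10 and went from 0.14 to 0.070 without Yorkshire 3.

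**Figure D5:**
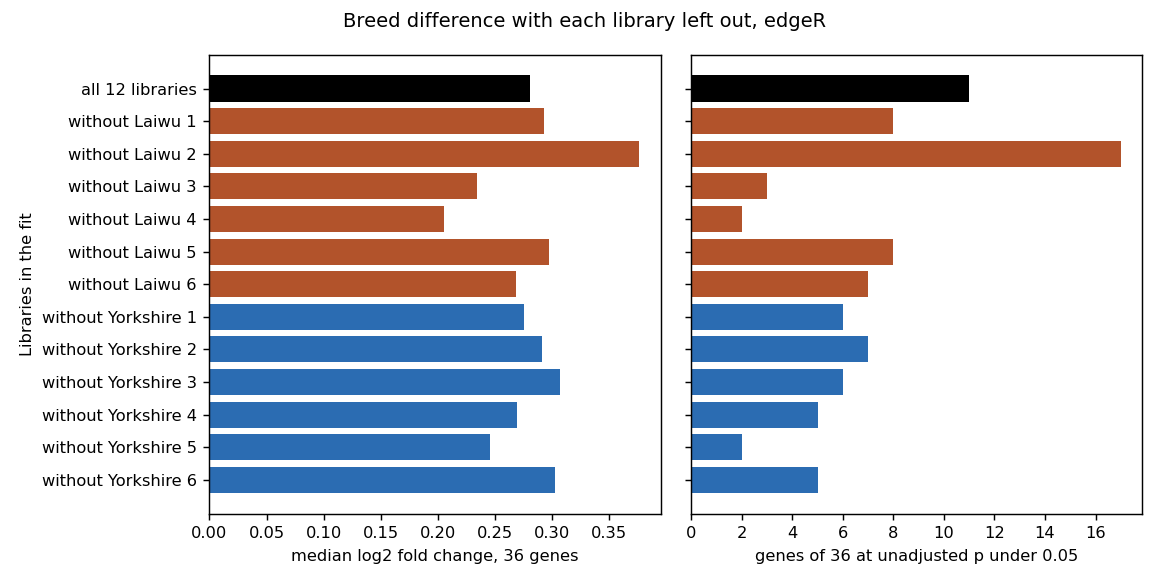
Median log2 fold change of the 36 tested genes (left) and number of them at an unadjusted p under 0.05 (right) with all 12 libraries and with each library left out, by edgeR. The median stays between 0.21 and 0.38, and the number runs from 2 without Laiwu 4 or Yorkshire 5 to 17 without Laiwu 2.

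Markers of cell types that could carry these transcripts were read in the same libraries. Markers of fibro-adipogenic progenitors summed to 122.6 to 210.8 FPKM in Laiwu and 137.2 to 184.8 FPKM in Yorkshire, with 13 of 14 in the table and 13 tested. Of these, 10 had a fitted log2 fold change above 0, with a median of 0.16. GSN, at a mean of 90.9 FPKM, weighs heavily on the sum. The mean deviation of the 13 tested markers was 0.27, 0.28 and 0.29 in Laiwu 3, Laiwu 4 and Laiwu 6. It ran from -0.21 to -0.090 in the other Laiwu libraries and from -0.21 to 0.070 in Yorkshire. Markers of tenocytes, the cells of tendon, summed to 15.9 to 35.6 FPKM in Laiwu and 7.38 to 34.7 FPKM in Yorkshire, with 9 of 9 in the table and 5 tested. Among those 5, 3 had a fitted log2 fold change above 0, with a median of 0.050. The sum was highest in Laiwu 5, as was EGR1, the most abundant of the list, at 30.4 FPKM, so the sum mostly follows EGR1. The mean deviation of the 5 tested markers was highest in Laiwu 4, at 1.24, with 0.62 in Laiwu 5 and -1.02 in Yorkshire 4, the lowest. EGR1 is among these 5 and was itself lowest in Yorkshire 4, at 4.86 FPKM. TNMD, the defining tenocyte gene tenomodulin, was listed at 0 in 3 Laiwu and 5 Yorkshire libraries and was highest in Laiwu 4, at 1.56 FPKM. The cartilage and tendon gene COMP was listed at 0 in every library but Laiwu 4, where it stood at 0.0999 FPKM. The tendon transcription factor genes SCX and MKX were highest in Yorkshire 4 and in Laiwu 5, at 0.167 and 0.164 FPKM. TNMD, COMP, SCX and MKX lay under the level needed for testing, so they are not in that mean deviation. They reached at most 127, 21, 20 and 40 counts in a library. KERA, the gene of the small leucine-rich proteoglycan keratocan and a neighbour of LUM, was highest in Laiwu 4 at 3.83 FPKM and next in Laiwu 3 at 1.64 FPKM. Adipocyte markers summed to 378.7 to 545.8 FPKM in Laiwu and 344.0 to 456.9 FPKM in Yorkshire, with 13 of 14 in the table, and stood at 529.1 FPKM in Laiwu 3 and 401.5 FPKM in Laiwu 4. GPD1, at a mean of 223.3 FPKM and a log2 fold change of -0.17, weighs heavily on this sum. The mean deviation of the 12 tested markers was 1.04 in Laiwu 3, 0.38 in Laiwu 4 and -0.43 in Laiwu 2, the lowest of Laiwu. In Yorkshire that mean ran from -0.98 to 0.21. TNMD, COMP, SCX, MKX and KERA are singled out after their values were seen. The part of any of these cells in the levels above was not tested.

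Related genes outside the 37 were read from lists, and 0 genes of any of them passed edgeR's test. Fibrillar and associated collagen genes lay above 0 for 11 of 11 tested, with a median log2 fold change of 0.39, and their summed level was highest in Laiwu 4 at 642.3 FPKM. Further elastic fibre genes lay above 0 for 11 of 12 tested (median 0.19), MFAP5 and LTBP3 being the most abundant. MFAP5, which is also in the list of fibro-adipogenic markers, was at 8.17 ± 4.29 FPKM in Laiwu and 6.59 ± 2.02 in Yorkshire. LTBP3 was at 4.43 ± 1.25 and 3.68 ± 0.891 FPKM (SD, n = 6 each). Their log2 fold changes were 0.27 ± 0.31 and 0.25 ± 0.20 (SE). Further matricellular genes lay above 0 for 10 of 15 tested (median 0.32), and FSTL1, the gene of a secreted SPARC family glycoprotein, had a log2 fold change of 0.39 ± 0.17 (SE). CILP, the gene of a cartilage and matrix protein that binds TGF-beta, was the most abundant of that list. It ran from 15.0 to 25.5 FPKM in Laiwu and from 10.1 to 13.3 FPKM in Yorkshire, so its groups did not overlap. Of all tested genes, 0.178% had groups that did not overlap, in either direction. The fitted log2 fold change of CILP was 0.74 ± 0.14, with an adjusted p of 0.912 by edgeR, and its highest value was in Laiwu 2. Further proteoglycan genes lay above 0 for 8 of 13 tested (median 0.11). Of these, GPC1, the glypican that carries heparan sulfate on the muscle cell surface, had a log2 fold change of -0.31 ± 0.14, and SPOCK2 one of 0.11 ± 0.19.

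The enzymes that build glycosaminoglycan chains lay above 0 for 13 of 29 tested, with a median log2 fold change of -0.020. HS6ST1 and NDST1, which sulfate heparan sulfate, were at 32.4 ± 10.6 and 24.4 ± 3.05 FPKM in Laiwu and 32.7 ± 9.25 and 25.3 ± 5.15 FPKM in Yorkshire (SD, n = 6 each). TGF-beta ligands, receptors and signalling genes lay above 0 for 10 of 19 tested (median 0.018). Basement membrane partners of perlecan and the nidogens lay above 0 for 8 of 10 tested (median 0.16), with COL4A1, a chain of type IV collagen, at 54.2 ± 11.8 and 47.4 ± 9.51 FPKM. Endothelial markers lay above 0 for 6 of 11 tested (median 0.012), smooth muscle and pericyte markers for 7 of 13 (median 0.040), macrophage markers for 2 of 9 (median -0.30), Schwann cell markers for 1 of 4 (median -0.11) and adipocyte markers for 10 of 12 (median 0.80).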

How the data were processed

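Purified mRNA of 12 libraries was made into strand-marked libraries, per the labels' protocols, and read on an Illumina instrument, per the series' design text. That text states that FastQC was applied to the raw reads and that HISAT2 2.2.1 mapped them to Sscrofa11.1. Names without a stated role in the submitters' processing notes are cutadapt 1.9, StringTie 1.3.4d, DESeq2 and edgeR. For every gene and library the authors deposited 1 raw count and 1 FPKM value. Annotation release and strand setting of the counting: not given in the sources used here.

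Laiwu was compared with Yorkshire, without covariates, in the 11205 genes averaging at least 0.5 FPKM. Counts were tested with edgeR 4.0.16 (TMM, robust quasi-likelihood F-test, Benjamini-Hochberg adjustment across those genes, threshold 0.05), which was checked on simulated counts. SE is the absolute log2 fold change over the square root of F. Deviations are log2 CPM minus the gene mean. Length is derived from count and FPKM, and the length trend is a lowess curve of each library's deviations on log2 length, entered as an offset. At 0 counts, a gene could still have 3 counts, that is 0.0446 to 0.0546 CPM, counting error only. Intervals of fold changes are at 95%.

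The members and lists were chosen with earlier results of these data known. All members are named. Elsewhere, the 2 tested genes with the highest mean FPKM of a list may be named, and other names are marked as picked after their values were seen. Alternatives were limma 3.58.1 on log2 FPKM with pseudocounts of 1 and 0.1, DESeq2 1.42.0, library size without TMM, no robust estimation, other low-value filters, a replicate block, the length trend and omission of each library (R 4.3.3). Omitting Laiwu 4 and Yorkshire 5 jointly, and repeating the SD counts with each library omitted, were added after the data were seen. Figures were drawn with matplotlib 3.10.9. No sequences were used here.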

Additional observations from a re-analysis of the deposited data

Results flagged for a closer look

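Within each breed, the highest and the lowest of the 6 libraries were compared with the nearest other value for each of the 37 genes in FPKM. Dixon's ratio sets that gap against the group's range. In 74 groups of 6, 5 had a library above its 95% critical value. For normally distributed values, chance flags about 1 group in 20, or 3.7. FPKM values need not be normal and the groups share the same libraries, so 3.7 is only a rough guide. Yorkshire 3 stood apart in 3 genes: TNC at 6.14 FPKM (next 1.31), THBS1 at 16.2 FPKM (next 6.83) and LUM at 17.5 FPKM (next 13.4). Laiwu 3 stood apart in FBLN5 at 5.99 FPKM (next 3.91) and in SPARCL1 at 82.3 FPKM (next 64.3).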

How the results depend on the processing

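Over 23 alternatives to the edgeR fit, 0 members were called, and the adjusted p of a member was 0.499 at the lowest. Of the 36 tested members, 30 kept the sign of their fold change under every alternative run and 6 did not. The number of genes called over the whole table was 0, except 1 by DESeq2. With 1 library left out, the members' median log2 fold change ran from 0.21 to 0.38, and those above 0 from 29 to 31. Members with a larger SD in Laiwu ran from 18 to 28, while the share of all tested genes with a larger Laiwu SD moved as well. THBS1, at -0.0097, was 0.16 and 0.23 by limma with pseudocounts of 1 and 0.1, 0.13 without both Laiwu 4 and Yorkshire 5, and ran from -0.30 to 0.60 with 1 library left out. VCAN was -0.11 with the length trend taken into account. With 1 library left out, LOXL1 ran from -0.22 to 0.053, MFAP2 from -0.33 to 0.080 and TNC from -1.59 to 0.034. The cause of these sign changes was not tested.

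The labels number the libraries 1 to 6 in each breed but do not say that a number marks a pair, and same-numbered libraries deviated together with r from -0.272 to 0.331. Of the 6 Laiwu libraries, 1 correlated best with its own number in Yorkshire. With the number as a replicate block, 31 members lay above 0, the median was 0.28, 3 members stood at an unadjusted p under 0.05 (3.86% of all tested genes did), the adjusted p of EFEMP1 was 0.502, THBS1 was 0.20 and THBS2 was 0.069. Depth limits MFAP2 and FBN2 most, at 32 to 118 and 26 to 120 counts per library. Differences of 1.5-fold were not recovered in simulated counts. Those counts were drawn for each gene on its own, without deviations shared by genes of a library, so they set no detection limit for the members.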

Other observations

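The 5 libraries in which THBS2 was high were also the 5 highest for genes outside these families, counted here without asking for a gap. Of 792 possible sets of 5 libraries, the set of Laiwu 2, Laiwu 4, Yorkshire 1, Yorkshire 2 and Yorkshire 4 held the 5 highest values of 195 of the 11205 tested genes (1.74%). It ranked first of all sets, the median set holding 8 genes. The same 5 libraries held the 5 lowest values of 125 genes (1.12%), a rank of 5. The 2 breeds are both present in this set. Of the genes with a gap of at least 2 in log2 CPM, only THBS2 and ENSSSCG00000048143 had this set on the high side. The second was picked after its values were seen.

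THBS1, the other thrombospondin of this subfamily, was at 1.33 to 4.64 FPKM in these 5 libraries and at 3.06 to 16.2 FPKM in the other 7, so its ranges overlapped.

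SPP1, the gene of osteopontin and another matricellular gene, was chosen after its values were seen. It stood at 76.7 FPKM in Yorkshire 3, the library in which TNC and THBS1 were highest, and at 8.84 FPKM in Yorkshire 5. The other 10 libraries were at 0.314 to 3.13 FPKM.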
